A study of Mus musculus with 6 samples.

Results

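Bcl2 family genes were singled out from a comparison of mouse leukemia cells with and without Ddit4. They are the 10 rows of the deposited gene table that carry the names Bcl2, Bcl2l1, Mcl1, Bcl2a1b, Bax, Bak1, Bcl2l11, Bbc3, Pmaip1 and Bid, out of 55421 genes in all. All 10 had enough counts to be tested, among 18375 genes tested. The cells carried AML1-ETO9a (AE9a), a truncated version of the fusion protein AML1-ETO that drives acute myeloid leukemia, and the question was how their transcriptome differs when Ddit4, a stress-induced inhibitor of mTOR signaling, is missing. Both groups were C57BL/6 cells in which a retrovirus had placed AE9a together with GFP into c-Kit+ blood stem and progenitor cells of donors 6 to 8 weeks old. The donors were Ddit4+/+ for the AE9a-Ddit4+/+ group (3 libraries) and Ddit4-/- for the AE9a-Ddit4-/- group (3 libraries). The cells were grown as leukemias in irradiated recipient mice, whose own blood cells can persist, and RNA was taken from bone marrow leukemia cells. Which primary leukemia each library came from is not given in the sources used here. Since the study describes fewer leukemic primary recipients of AE9a-Ddit4-/- cells than there are libraries, libraries of that group may share a primary leukemia. Hence n counts libraries, and p-values measure the spread between libraries, which may be technical.

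Bcl2 family proteins decide whether the outer membrane of the mitochondrion stays intact. Anti-apoptotic members (Bcl2, Bcl2l1, Mcl1 and Bcl2a1b) hold the effectors Bax and Bak1 in check, and the effectors otherwise form pores that release cytochrome c and start the caspase cascade. BH3-only members (Bcl2l11, Bbc3, Pmaip1 and Bid) sense stress and act on both other classes. Myeloid leukemia cells are known to lean on BCL2 and MCL1, which is why BH3-mimetic drugs are used in this disease.

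Library totals ran from 62141558 to 72717681 counts. Ddit4 itself had 228, 161 and 342 CPM (the count per 1000000 counts of a library, after TMM scaling) in AE9a-Ddit4+/+ and 84.9, 77.7 and 85.9 CPM in AE9a-Ddit4-/- cells, a log2 fold change of -1.56 (SE 0.28; adjusted p = 0.00635, edgeR). Which part of the gene the knockout allele lacks is not given in the sources used here, so reads from the rest of the gene may remain. Neither this nor a part of recipient cells in the Ddit4 reads was tested. At the protein level, the study reported from a western blot that AE9a-Ddit4-/- leukemia cells had no DDIT4. The groups also differed in ways that are not Ddit4. The Y-linked gene Ddx3y was at 88.2 to 125 CPM in AE9a-Ddit4-/- cells and at 0.0774 CPM or less in AE9a-Ddit4+/+ cells. Xist, expressed by female cells, was at 20.3 to 129 CPM in AE9a-Ddit4-/- and at 566 to 1032 CPM in AE9a-Ddit4+/+ libraries. The sex of the cells and the genotype thus cannot be told apart. Recipients whose sex the study gives were female, and the part of recipient cells in these values was not tested. Mitochondrially encoded genes took 11.3 to 16.4% of counts in AE9a-Ddit4-/- and 5.03 to 7.9% in AE9a-Ddit4+/+ libraries. Over all genes tested, 10.7% were lower and 19.4% were higher in AE9a-Ddit4-/- cells (edgeR, adjusted p below 0.05). Of the marker lists, 11 of 15 erythroid and 5 of 13 neutrophil genes tested were lower. Higher were 5 of 7 progenitor, 8 of 11 megakaryocyte and platelet (with 1 lower) and 4 of 11 monocyte and macrophage genes tested. Also higher were 4 of 8 mast cell and basophil and 8 of 9 B cell genes tested. So were 10 of 12 T and NK cell and 6 of 10 stroma and endothelium genes tested. Kit, the receptor used to enrich the donor cells, was at 14.6 to 31.6 CPM in AE9a-Ddit4+/+ and at 304 to 509 CPM in AE9a-Ddit4-/- libraries. In bulk RNA, fewer cells of a type and less RNA per cell cannot be told apart, and the part of these shifts in the results on the Bcl2 family was not tested.

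Of the 10 members, 4 were higher in AE9a-Ddit4-/- cells, namely Bcl2, Mcl1, Bcl2a1b and Bcl2l11. For comparison, 19.4% of all genes tested were higher and 10.7% were lower (30.1% in either direction), by edgeR's quasi-likelihood test with Benjamini-Hochberg adjustment over all genes and a threshold of 0.05. None (0) of the 10 was lower. DESeq2 likewise called 4 higher and 0 lower, and 4 had an unadjusted p below 0.05 in edgeR. By class, 3 of 4 anti-apoptotic members, 0 of 2 effectors and 1 of 4 BH3-only members rose. The median log2 fold change of the 10 was 0.36, against 0.04 over all genes tested. Values of the groups did not overlap for 5 of 10 members, a share close to the 50.1% of all genes tested. Bcl2a1b, counted among the 3 anti-apoptotic members that rose, passed the filter on low counts through the AE9a-Ddit4-/- libraries alone. It therefore counts as no support for that class. Of the other 9 members, 3 were higher and the median log2 fold change was 0.21.

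**Figure D1:**
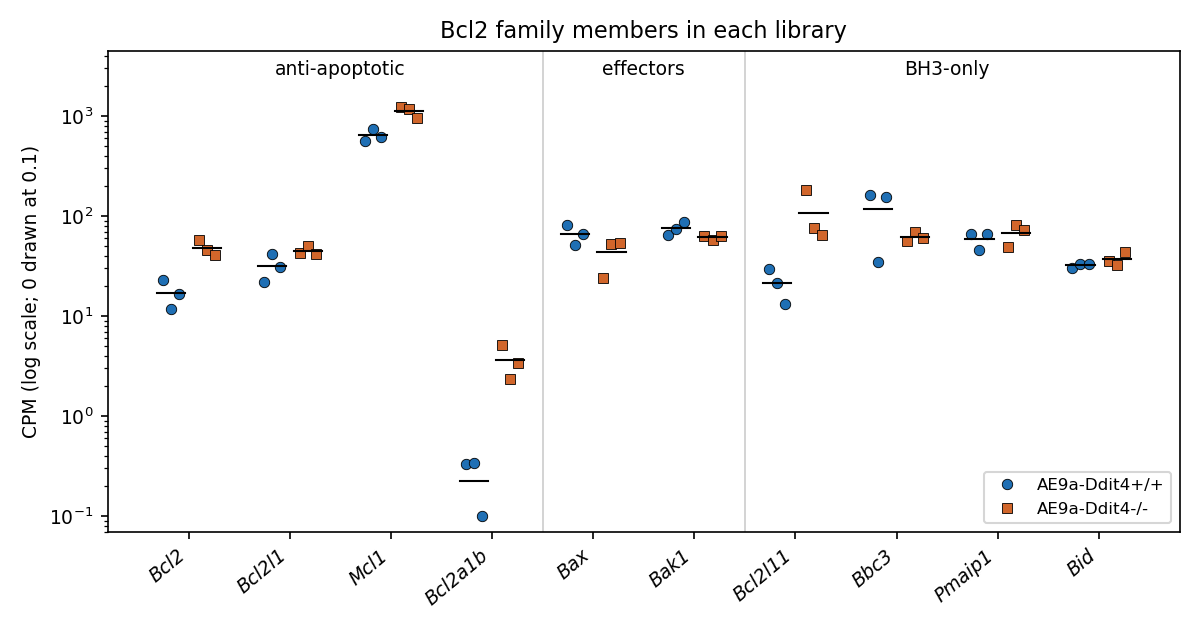
CPM (log axis) of each member in each of the 6 libraries, with blue circles for AE9a-Ddit4+/+, orange squares for AE9a-Ddit4-/- and black lines for group means; a value of 0 is drawn at 0.1. Bcl2, Mcl1, Bcl2a1b, Bcl2l11 and Bak1 are the 5 members whose groups do not overlap.

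Bcl2, the founding anti-apoptotic member, rose 2.81-fold. The gene (ENSMUSG00000057329) lies on the minus strand of chromosome 1, from 106538178 to 106714274 (GRCm38). It stood at 23.1, 11.7 and 16.6 CPM with Ddit4 and at 57.7, 45.6 and 40.7 CPM without it, in libraries 1, 2 and 3 of each group; values of other genes follow the same order. Every AE9a-Ddit4-/- library thus lay above every AE9a-Ddit4+/+ library. The means were 17.1 ± 5.70 and 48.0 ± 8.72 CPM (SD, n = 3 libraries each), and the log2 fold change was 1.49 (SE 0.30, 95% interval 0.79 to 2.18; adjusted p = 0.00925). Lymphocytes express Bcl2 as well, and the summed B cell markers stood at 1.42 to 5.48 CPM in AE9a-Ddit4+/+ and 72.7 to 156 CPM in AE9a-Ddit4-/- libraries, and their part in the change was not tested. Genes above a log2 CPM of 4 on chromosome 1 had a median log2 fold change of 0.23, and relative to it the value for Bcl2 was 1.25 (adjusted p = 0.0183).

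Mcl1, a short-lived anti-apoptotic protein that blood stem cells and myeloid cells depend on, rose 1.75-fold from the highest level of the family. Mcl1 (ENSMUSG00000038612, chromosome 3, 95658788 to 95663176, plus strand) was at 562, 747 and 612 CPM in AE9a-Ddit4+/+ and at 1219, 1186 and 962 CPM in AE9a-Ddit4-/- libraries. The groups did not overlap, and their means were 640 ± 95.9 and 1123 ± 140 CPM (SD, n = 3 libraries each). The log2 fold change was 0.81 (SE 0.19, 95% interval 0.36 to 1.26; adjusted p = 0.0177). This call depended on single libraries: the adjusted p was 0.0600 without AE9a-Ddit4+/+ replicate 1, 0.0677 without AE9a-Ddit4+/+ replicate 3, 0.0547 without AE9a-Ddit4-/- replicate 1 and 0.0583 without AE9a-Ddit4-/- replicate 2.

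Bcl2l1, which encodes Bcl-xL and is needed by platelets and red cell precursors, did not pass the test. Bcl2l1 (ENSMUSG00000007659, chromosome 2, 152780668 to 152831728, minus strand) was at 21.7, 42.1 and 30.8 CPM in AE9a-Ddit4+/+ and at 42.7, 49.7 and 41.9 CPM in AE9a-Ddit4-/- libraries. AE9a-Ddit4+/+ replicate 2 reached the lower end of the AE9a-Ddit4-/- values. The log2 fold change was 0.50 (95% interval -0.13 to 1.14; adjusted p = 0.199).

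Bcl2a1b, one of the mouse copies of the anti-apoptotic gene A1 that myeloid cells and lymphocytes express, was the lowest member in both groups and had the largest log2 fold change of the 10. Bcl2a1b (ENSMUSG00000089929, chromosome 9, 89199209 to 89207827, plus strand) had 21, 23 and 0 counts in AE9a-Ddit4+/+ and 322, 143 and 252 counts in AE9a-Ddit4-/- libraries. In CPM this was 0.332, 0.339 and 0 against 5.17, 2.35 and 3.43, with no overlap. The limit of detection, set at 12 counts, was 0.163 to 0.198 CPM, so the AE9a-Ddit4+/+ values were close to it or under it. The log2 fold change was 4.02 (SE 1.09, 95% interval 1.47 to 6.56; adjusted p = 0.0291), and its size depends on the prior count of the fit. The call was lost without AE9a-Ddit4+/+ replicate 1 (adjusted p = 0.0666), AE9a-Ddit4-/- replicate 1 (0.0885) or AE9a-Ddit4-/- replicate 3 (0.0631), and without AE9a-Ddit4+/+ replicate 3 the log2 fold change was 3.43. Summed B cell and T and NK cell markers were higher in AE9a-Ddit4-/- libraries as well (T and NK: 127 to 169 against 12.3 to 51.4 CPM), and their part was not tested.

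In their coding sequences, the A1 copies are hard to tell apart by short reads. In GENCODE M21 transcripts, the coding sequences of Bcl2a1a, Bcl2a1b and Bcl2a1d are each 519 bases long, with 12 positions at which the 3 copies are not all alike. Identity was 97.9% between Bcl2a1a and Bcl2a1b, 98.7% between Bcl2a1a and Bcl2a1d and 98.8% between Bcl2a1b and Bcl2a1d. The longest shared stretch was 314 bases between Bcl2a1a and Bcl2a1d, and 217 bases between Bcl2a1b and either of them. Both are longer than a read of 150 bases. Only coding bases were compared, and the reads were paired, so some fragments may still reach a position that differs. The first 90 coding bases are shown because 6 of the 12 positions fall in them, and capitals mark these.
Bcl2a1a: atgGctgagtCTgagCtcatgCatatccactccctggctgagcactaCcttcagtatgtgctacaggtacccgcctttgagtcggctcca
Bcl2a1b: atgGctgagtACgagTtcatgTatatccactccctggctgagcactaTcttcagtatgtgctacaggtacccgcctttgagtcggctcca
Bcl2a1d: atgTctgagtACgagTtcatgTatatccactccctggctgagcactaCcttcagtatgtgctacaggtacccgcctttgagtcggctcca
How reads that match several copies were counted is not given in the sources used here, so the split between copies is uncertain. Bcl2a1a was at 0, 0.0884 and 0.0619 CPM in AE9a-Ddit4+/+ and 0.466, 0.757 and 0.884 CPM in AE9a-Ddit4-/- libraries, at least 3.7-fold higher against the limit of detection per library (adjusted p = 0.0250). This call was lost without AE9a-Ddit4+/+ replicate 3 (0.0731) or AE9a-Ddit4-/- replicate 1 (0.0538), 2 (0.0682) or 3 (0.0831). Bcl2a1d was at 0.649, 0 and 0.0774 CPM against 1.54, 1.47 and 1.90 CPM and did not pass (log2 fold change 2.75, adjusted p = 0.133). Bcl2a1c had 0 counts in every library. When the counts of Bcl2a1a, Bcl2a1b and Bcl2a1d were summed before the fit, the log2 fold change was 3.53 (adjusted p = 0.00957).

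Neither effector passed the test. Bax (ENSMUSG00000003873, chromosome 7, 45461697 to 45466898, minus strand), the effector that moves from the cytosol to mitochondria, was at 81.7, 50.8 and 65.5 CPM in AE9a-Ddit4+/+ and at 24.1, 52.3 and 53.9 CPM in AE9a-Ddit4-/- libraries. AE9a-Ddit4-/- replicate 1 was low and the other two lay inside the AE9a-Ddit4+/+ range. The log2 fold change was -0.60 (95% interval -1.40 to 0.20; adjusted p = 0.224). Bak1 (ENSMUSG00000057789, chromosome 17, 27019810 to 27029009, minus strand), the effector that sits in the mitochondrial membrane, was at 65.2, 73.9 and 88.2 CPM against 63.2, 58.1 and 62.8 CPM. The Bak1 values did not overlap, but the gap was narrow and the log2 fold change of -0.30 (95% interval -0.74 to 0.13; adjusted p = 0.254) was within the spread between libraries.

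Bcl2l11, which encodes the BH3-only protein Bim, showed the largest change among members well above the limit of detection. Bcl2l11 (ENSMUSG00000027381, chromosome 2, 128126038 to 128162547, plus strand) was at 29.3, 21.6 and 13.2 CPM in AE9a-Ddit4+/+ and at 184, 75.2 and 65.3 CPM in AE9a-Ddit4-/- libraries. The groups did not overlap, and AE9a-Ddit4-/- replicate 1 stood far above the other 2 libraries of its group. Means were 21.4 ± 8.03 and 108 ± 66.0 CPM (SD, n = 3 libraries each), a 5.06-fold difference (log2 fold change 2.34, SE 0.48, 95% interval 1.22 to 3.45; adjusted p = 0.00996). Without AE9a-Ddit4-/- replicate 1 the log2 fold change was 1.72 and still past the threshold. Bcl2l11 and the anti-apoptotic genes Bcl2 and Mcl1 that restrain Bim were thus all higher in AE9a-Ddit4-/- cells.

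The promoters of these 3 genes are shown because the genes rose together at measurable levels. Each is the window of 250 bases before a RefSeq start on GRCm38.p6, read on the strand of the gene, and capitals mark a match to GTAAACA, a FoxO binding motif. The windows are chr1:106714291-106714540 (minus strand) for Bcl2, chr3:95658471-95658720 (plus strand) for Mcl1 and chr2:128125788-128126037 (plus strand) for Bcl2l11.
Bcl2: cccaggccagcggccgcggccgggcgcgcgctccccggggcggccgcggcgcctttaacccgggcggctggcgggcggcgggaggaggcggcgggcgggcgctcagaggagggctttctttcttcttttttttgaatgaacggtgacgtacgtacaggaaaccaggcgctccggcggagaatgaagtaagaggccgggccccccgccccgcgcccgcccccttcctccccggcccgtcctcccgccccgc
Mcl1: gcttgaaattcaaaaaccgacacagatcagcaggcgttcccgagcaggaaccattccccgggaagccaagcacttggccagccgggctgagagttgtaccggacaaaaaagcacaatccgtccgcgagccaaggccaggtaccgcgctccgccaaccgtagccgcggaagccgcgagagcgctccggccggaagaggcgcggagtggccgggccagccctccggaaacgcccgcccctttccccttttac
Bcl2l11: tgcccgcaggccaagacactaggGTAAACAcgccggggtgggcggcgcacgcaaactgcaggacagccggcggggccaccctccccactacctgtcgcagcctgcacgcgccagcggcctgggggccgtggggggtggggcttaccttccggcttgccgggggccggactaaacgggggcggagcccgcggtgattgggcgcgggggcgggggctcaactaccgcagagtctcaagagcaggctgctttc
The match in this Bcl2l11 window begins 227 bases before the start. A second RefSeq window of Bcl2l11 (chr2:128127325-128127574, plus strand) held none of the 3 motifs searched. Searched on both strands, GTAAACA was in 3.17% of 32851 such windows of all genes, the Runx motif TGTGGT in 14% and the E-box CACGTG in 6.02%. Windows were found for 9 of the 10 members, 14 windows in all. Among them GTAAACA was in windows of Bcl2l11 and Bbc3, CACGTG in windows of Bax and Bbc3, and TGTGGT in a window of Bak1. A match describes the letters only.

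The other BH3-only members did not pass the test. Bbc3, which encodes the p53 target Puma, differed widely between AE9a-Ddit4+/+ libraries. Bbc3 (ENSMUSG00000002083, chromosome 7, 16308393 to 16318205, plus strand) was at 164, 34.5 and 156 CPM in AE9a-Ddit4+/+ and at 55.8, 69.1 and 60.1 CPM in AE9a-Ddit4-/- libraries. AE9a-Ddit4+/+ replicate 2 lay below all AE9a-Ddit4-/- libraries and the other 2 of its group above them. The log2 fold change was -0.94 (SE 0.51, 95% interval -2.14 to 0.26; adjusted p = 0.208). Without AE9a-Ddit4+/+ replicate 2 it was -1.38 and past the threshold (adjusted p = 0.00314), so this 1 library decided the call. Trp53, the gene for p53, was low in the same library, at 54.6 CPM against 165 and 129 CPM in the other AE9a-Ddit4+/+ libraries.

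Pmaip1, which encodes Noxa, a BH3-only protein that binds Mcl1, and Bid, the link from death receptors to mitochondria, showed small differences. Pmaip1 (ENSMUSG00000024521) was at 66.5, 45.8 and 66.4 CPM in AE9a-Ddit4+/+ and at 49.4, 80.5 and 72.6 CPM in AE9a-Ddit4-/- libraries, with wide overlap. Its log2 fold change was 0.18 (95% interval -0.41 to 0.78; adjusted p = 0.625). Bid (ENSMUSG00000004446, chromosome 6, 120891930 to 120916853, minus strand) was at 30.5, 32.8 and 33.0 CPM against 35.7, 32.3 and 43.6 CPM. The groups overlapped, and the log2 fold change was 0.21 (95% interval -0.26 to 0.68; adjusted p = 0.466). The exons of Bid overlap those of Bcl2l13 on the opposite strand, which had 9790 to 15592 counts in AE9a-Ddit4+/+ and 3515 to 4246 counts in AE9a-Ddit4-/- libraries. Without knowledge of strand use their reads cannot be told apart.

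**Figure D2:**
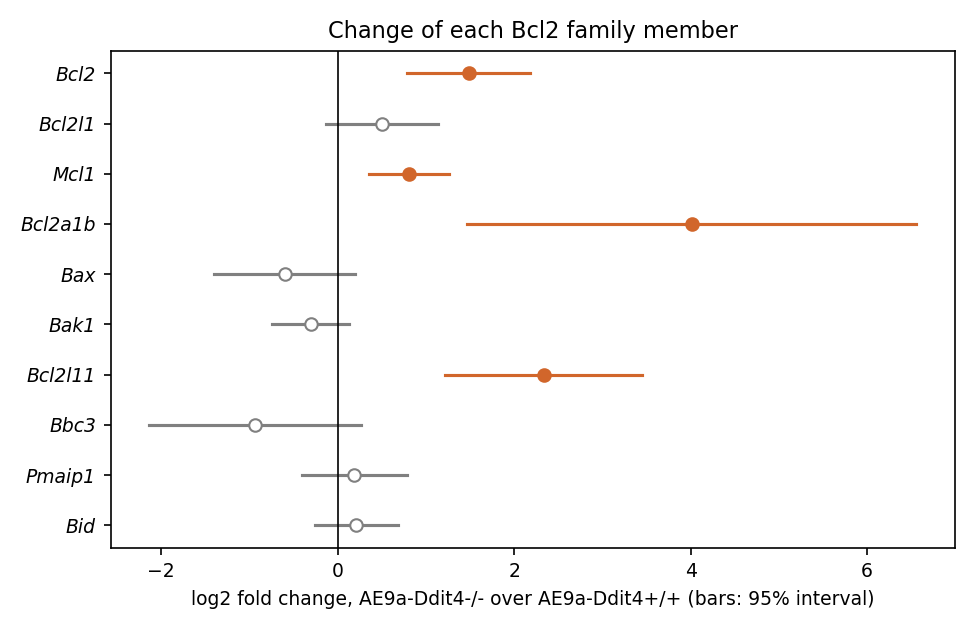
Log2 fold change of each member (AE9a-Ddit4-/- over AE9a-Ddit4+/+, points) with its 95% interval (bars); filled orange points passed the edgeR test at an adjusted p of 0.05. The intervals of Bcl2, Mcl1, Bcl2a1b and Bcl2l11 lie above 0, and those of the other 6 members include 0.

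Leaving out each library in turn separated the members further. Bcl2 (log2 fold change 1.28 to 1.76) and Bcl2l11 (1.72 to 2.63) passed the threshold in 6 of 6 such fits. Mcl1 (0.72 to 0.94) passed in 2 of 6 and Bcl2a1b (3.43 to 4.44) in 3 of 6. Bcl2l1, Bax, Bak1, Pmaip1 and Bid passed in 0 of 6, and Bbc3 in 1 of 6.

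**Figure D3:**
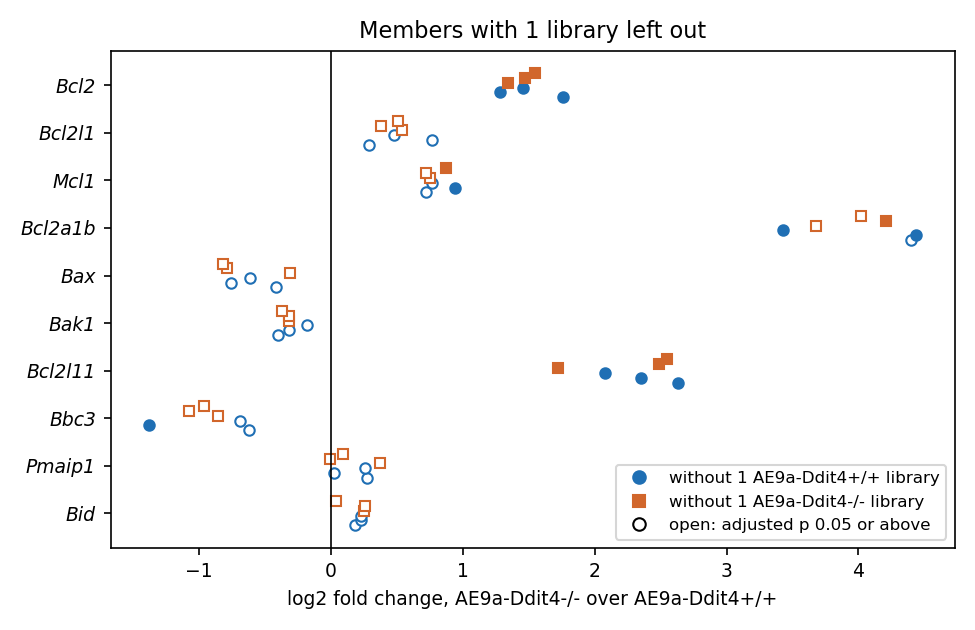
Log2 fold change of each member when 1 library is left out, with blue circles for an omitted AE9a-Ddit4+/+ library and orange squares for an omitted AE9a-Ddit4-/- library; filled symbols have an adjusted p below 0.05. All 6 symbols of Bcl2 and of Bcl2l11 are filled, against 2 for Mcl1, 3 for Bcl2a1b and 1 for Bbc3.

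Levels of different genes were compared as CPM per kilobase of exon, with no test. Mcl1 was the most abundant member in both groups, at 187 ± 28.0 CPM per kilobase in AE9a-Ddit4+/+ and 328 ± 40.9 in AE9a-Ddit4-/- (SD, n = 3 libraries each). Of the summed level of the 10 members, Mcl1 made up 45.0, 64.8 and 47.8% in the AE9a-Ddit4+/+ libraries and 71.7, 68.9 and 64.7% in the AE9a-Ddit4-/- libraries. AE9a-Ddit4+/+ replicate 2, in which Bbc3 was low, was level with the lowest AE9a-Ddit4-/- library. The mean order below Mcl1 was the same in both groups for Bbc3 (55.6 and 29.0 CPM per kilobase), Bax (41.9 and 27.6), Bak1 (31.5 and 25.5) and Pmaip1 (21.8 and 24.7). In AE9a-Ddit4+/+ the ranges of Bbc3, Bax and Bak1 over libraries overlapped, and in AE9a-Ddit4-/- those of Bbc3, Bax, Bak1 and Pmaip1, each with its neighbour in this order. Within libraries, Bax lay above Bak1 in each AE9a-Ddit4+/+ library (51.8 against 27.1, 32.2 against 30.7 and 41.6 against 36.6). Bid (9.04 and 10.5 CPM per kilobase) and Bcl2l1 (6.88 and 9.76) followed. Bcl2l11 went from 2.66 to 13.5 CPM per kilobase and from the eighth to the sixth place, with Bcl2 (1.87 and 5.24) and Bcl2a1b (0.274 and 4.47) below it. From Bid downwards in AE9a-Ddit4+/+, the ranges of Bid and Bcl2l1 and those of Bcl2l11 and Bcl2 overlapped, and in AE9a-Ddit4-/- those of Bcl2l11, Bid and Bcl2l1 and those of Bcl2 and Bcl2a1b.

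**Figure D4:**
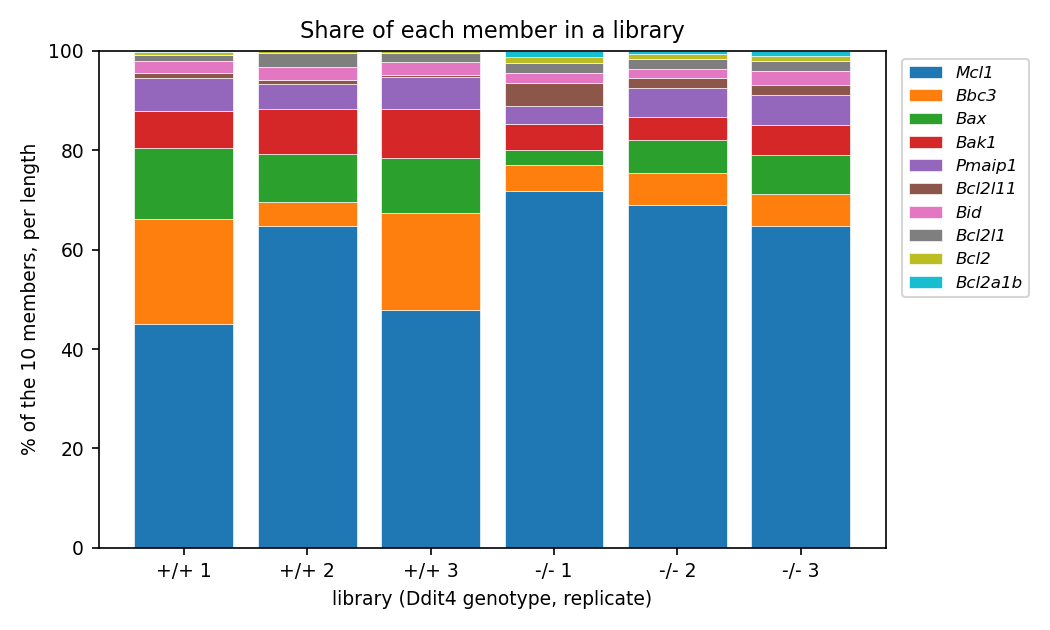
Percentage of the summed level (CPM per kilobase of exon) of the 10 members taken by each member in each library, with the 3 AE9a-Ddit4+/+ libraries on the left and the 3 AE9a-Ddit4-/- libraries on the right. Mcl1 takes 45.0 to 64.8% on the left and 64.7 to 71.7% on the right, and Bbc3 is small in AE9a-Ddit4+/+ replicate 2.

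Ratios of members per library, chosen after the values were seen and given as a description, moved both ways. Bcl2 over Bax, per length, was 0.0486, 0.0397 and 0.0435 in AE9a-Ddit4+/+ and 0.412, 0.150 and 0.130 in AE9a-Ddit4-/- libraries. Mcl1 over Bcl2l11 was 45.1, 81.2 and 109 against 15.5, 37.1 and 34.6. Bcl2 over Bax was thus higher in every AE9a-Ddit4-/- library, and Mcl1 over Bcl2l11 was lower in each. Bcl2l1 over Bax was 0.0915, 0.285 and 0.162 against 0.609, 0.326 and 0.267, and these groups overlapped. Bcl2l11 over Bbc3, both BH3-only members, was 0.0471, 0.166 and 0.0225 against 0.873, 0.288 and 0.288, without overlap.

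Among 56 other genes of the pathway, 52 were tested, and 15 of these rose and 10 fell in AE9a-Ddit4-/- cells, with a median log2 fold change of 0.08. As a background for these counts and for those of each list that follows, 19.4% of all genes tested were higher and 10.7% were lower. Of 16 further Bcl2 family genes, 13 were tested, 6 were higher and 2 lower. Their median log2 fold change was 2.75, or 1.89 with genes at the limit of detection set to their lower bound. Several of these, Bok, Bcl2a1a and Bcl2l14 among them, had passed the filter on low counts through the AE9a-Ddit4-/- libraries alone. Such genes count as no support among the 6 or the 15 higher genes, or for the median. Bmf, a BH3-only gene related in action to Bcl2l11, was at 3.01, 5.79 and 1.28 CPM in AE9a-Ddit4+/+ and 53.2, 39.3 and 37.3 CPM in AE9a-Ddit4-/- cells (log2 fold change 3.68, adjusted p = 0.00304, and 4.33 without AE9a-Ddit4+/+ replicate 2). Bok, an effector-like gene, was at 0.0737 CPM or less in AE9a-Ddit4+/+ and at 5.27 to 13.6 CPM in AE9a-Ddit4-/- libraries, at least 48.4-fold higher (adjusted p = 0.00195). Bcl2l14 rose from 0.170 CPM, a level near the limit of detection, to 15.1 CPM (log2 fold change 6.46, adjusted p = 0.00144, and 7.25 without AE9a-Ddit4+/+ replicate 1). Bcl2l13 fell from 190 to 58.2 CPM (log2 fold change -1.71, adjusted p = 0.00212). Bnip3 rose from 5.48 to 37.6 CPM (log2 fold change 2.78, adjusted p = 0.00191). Its relative Bnip3l, a mitophagy receptor of maturing red cells, fell from 336 to 199 CPM (log2 fold change -0.75, adjusted p = 0.0132). Summed erythroid markers stood at 7916 to 16621 CPM in AE9a-Ddit4+/+ and 671 to 1203 CPM in AE9a-Ddit4-/- libraries, and their part was not tested.

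Downstream of mitochondria, 2 of 20 genes for the apoptosome, caspases and their inhibitors were higher and 5 were lower (median log2 fold change -0.19). Casp9, the initiator caspase of the apoptosome, fell from 28.5 ± 1.99 to 13.1 ± 2.42 CPM (SD, n = 3 libraries each; log2 fold change -1.12, adjusted p = 0.0109). Apaf1, the scaffold of the apoptosome, and Cycs, for cytochrome c, did not pass (log2 fold changes 0.51 and -0.27). The inhibitor of apoptosis genes moved in both directions: Birc3 (log2 fold change 1.23, adjusted p = 0.0155) and Birc2 (0.91, 0.0372) rose, and Birc5, a gene of dividing cells, fell (-1.70, 0.0102). Htra2, a mitochondrial protease, was also lower (-1.13, 0.0291). The Birc3 call was lost without AE9a-Ddit4+/+ replicate 1 (adjusted p = 0.0511) or AE9a-Ddit4-/- replicate 1 (0.0525). The calls of Birc2 and Htra2 each held in 1 of 6 fits without 1 library. For Birc2 this was the fit without AE9a-Ddit4-/- replicate 3 (adjusted p = 0.0202, against 0.0592 to 0.107 with each other library left out instead), and for Htra2 that without AE9a-Ddit4+/+ replicate 2 (0.00617, against 0.0623 to 0.0892).

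Of 9 death receptor genes, 5 were higher and 1 was lower (median log2 fold change 1.0). Cflar, which blocks caspase-8 activation, was at 45.1, 71.7 and 49.1 CPM against 212, 151 and 159 CPM (log2 fold change 1.66, adjusted p = 0.00321). Casp8, the gene for caspase-8, was higher as well (log2 fold change 0.95, adjusted p = 0.012). The receptors Tnfrsf10b (log2 fold change 3.19, adjusted p = 0.00351) and Tnfrsf1a (adjusted p = 0.0265, from 41.5 to 83.2 CPM) rose, and the adaptor Tradd fell (log2 fold change -0.72, adjusted p = 0.0446). The calls of Tnfrsf1a and Tradd each held in 1 of 6 fits without 1 library, that without AE9a-Ddit4+/+ replicate 2 (adjusted p = 0.0107 and 0.0492). With each of the other libraries left out instead, the adjusted p was 0.0504 to 0.084 for Tnfrsf1a and 0.0666 to 0.134 for Tradd. Fasl, the ligand that cytotoxic lymphocytes use, was at 0.0589 CPM or less in AE9a-Ddit4+/+ and at 1.51 to 6.22 CPM in AE9a-Ddit4-/- libraries, at least 19.6-fold higher (adjusted p = 0.00418). Fasl had passed the filter on low counts through the AE9a-Ddit4-/- libraries alone, so it counts as no support among the 5 higher genes. The part of the higher T and NK cell markers was not tested.

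Of 11 upstream regulators, 10 were tested, 2 were higher and 2 lower (median log2 fold change -0.02). Foxo1, a transcription factor for which Bcl2l11 is a known target, was at 10.7, 7.21 and 3.44 CPM in AE9a-Ddit4+/+ and at 44.0, 37.6 and 24.4 CPM in AE9a-Ddit4-/- cells (log2 fold change 2.31, SE 0.45, adjusted p = 0.00837). Foxo3, a relative with overlapping targets, did not pass (0.05, adjusted p = 0.925). Myc was at 41.6, 30.6 and 51.5 CPM against 111, 171 and 184 CPM (log2 fold change 1.91, adjusted p = 0.00302). E2f1 was lower (log2 fold change -1.43, adjusted p = 0.0200), a call lost without AE9a-Ddit4+/+ replicate 1 (0.0631) or 3 (0.0591). Trp53, which drives Bbc3, Pmaip1 and Bax transcription under stress, was lower at a log2 fold change of -1.41 (SE 0.43, adjusted p = 0.0419), with AE9a-Ddit4+/+ replicate 2 inside the AE9a-Ddit4-/- range of 29.6 to 57.0 CPM. The Trp53 call held in 1 of 6 fits without 1 library, that without AE9a-Ddit4+/+ replicate 2 (adjusted p = 0.00735), and the adjusted p was 0.0587 to 0.129 with each of the other 5 left out instead. The 20 genes named from these lists by size of change kept their direction in every alternative run in which they were tested. Only 10 of 20 stayed past the threshold of 0.05 in each such run, and 12 of 20 did so in every fit without 1 library. Bok, Bcl2l14 and Fasl are in both counts. Having passed the filter through the AE9a-Ddit4-/- libraries alone, they count as no support there either. With at least 10 counts asked of every library, they and Bcl2a1a could not be tested.

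**Figure D5:**
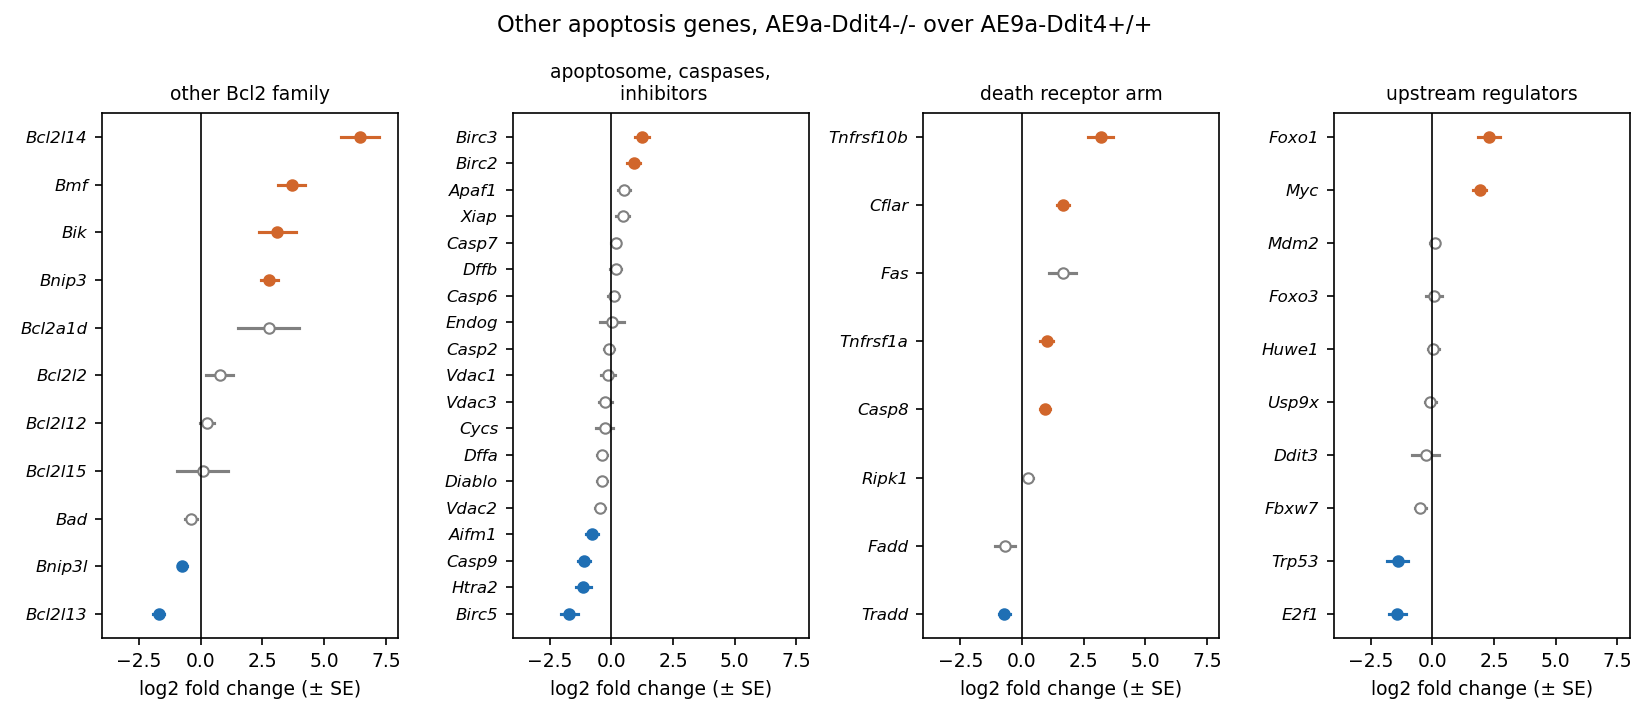
Log2 fold change (± SE) of other apoptosis genes tested and reported here, AE9a-Ddit4-/- over AE9a-Ddit4+/+, in 4 lists; orange is higher, blue is lower and open grey points did not pass an adjusted p of 0.05. Bok, Bcl2a1a and Fasl, at the limit of detection in AE9a-Ddit4+/+, are not drawn; Bcl2l13 is the lowest point at -1.71 and Bcl2l14 the highest at 6.46.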

How the data were processed

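RNA sequencing was done on 6 libraries of bone marrow leukemia cells on an Illumina NovaSeq with paired reads of 150 bp, per the methods of the study. The labels name an mRNA kit and the methods a directional kit for rRNA-depleted RNA. The authors deposited whole-number counts per gene, 1 column for each library; the submitters' processing notes name GRCm38 and mm10, and the aligner, counter, annotation and use of strand are not given in the sources used here. Low counts were 1.40 to 1.62 times as frequent at 4, 8 and 12 as at 2, 6 and 10, so the limit of detection was set at 12 counts (0.163 to 0.198 CPM), which covers counting error only, as do all such limits here. Of 55421 genes, 26626 had 0 counts in every library. Gene positions and exon lengths came from GENCODE M21, which held 55240 (99.7%) of the identifiers, and promoters from RefSeq (GRCm38.p6).

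Groups came from sample titles. Genes were kept by filterByExpr, scaled by TMM and tested with edgeR 4.0.16 (limma 3.58.1, R 4.3.3) by the quasi-likelihood test on genotype, with Benjamini-Hochberg adjustment over 18375 genes and a threshold of 0.05; the code was tested on simulated data. CPM used TMM-scaled totals. Levels per kilobase used the union of exons. DESeq2 1.42.0, other scalings and filters, a replicate block, counts divided by 4 and fits without 1 library were alternatives. From each pathway list, up to 4 genes per direction of largest change that passed the threshold, with at least 10 counts in each library of the higher group, were named. A gene picked by this rule is not reported here. Other named pathway genes were added for their role. Members, lists and motifs were chosen with earlier results of these data known. The sequence of Pmaip1 is not reported here.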

Additional observations from a re-analysis of the deposited data

How the results depend on the processing

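Across the alternatives, Bcl2 (log2 fold change 1.25 to 1.76, adjusted p 4.33e-05 to 0.0378) and Bcl2l11 (1.72 to 2.63, 1.04e-05 to 0.0358) stayed past the threshold in 16 of 16. Mcl1 did so in 11 of 16 and Bcl2a1b in 11 of 15 (with at least 10 counts asked of every library it could not be tested). Bbc3 passed in 1 of 16, without AE9a-Ddit4+/+ replicate 2. Pmaip1 changed sign without AE9a-Ddit4-/- replicate 2 (log2 fold change -0.01, adjusted p 0.989; -0.01 to 0.37 over fits without 1 library). Leaving out 1 library gave 2 to 4 members higher and 0 to 1 lower, 10 to 16 pathway genes higher and 5 to 10 lower, and 2683 to 3943 genes higher and 1089 to 2078 lower over all genes. An adjusted p of 0.01 gave 2 members higher, 9 pathway genes higher and 2 lower, and 1964 genes higher and 712 lower over all genes. A minimum of 10 counts in each library left 2341 of all genes higher. Relative to the chromosome median, 75.7% of calls were higher (3879 of 5123) against 64.3% before, with 1244 lower. With the longest transcript as length, Mcl1 made up 63.3% of the members in AE9a-Ddit4-/- cells, against 68.5%. A stricter threshold gives fewer calls by construction, and the cause of the other shifts was not tested.

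Same-numbered libraries did not deviate together (correlations -0.281 to 0.0232), and 0 of 6 libraries correlated best with their own number. These values gave no sign of pairing by replicate number. With 3 libraries per group, they cannot show whether same-numbered libraries were handled together. A fit with the replicate block gave 2 members higher (Mcl1 adjusted p 0.0601, Bcl2a1b 0.0791), 9 pathway genes higher and 3 lower, and 2177 genes higher and 787 lower over all genes.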
